A study of Homo sapiens with 6 samples.

Results

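The gelsolin family was followed through MDA-MB-231 cells, a triple-negative breast cancer line, after treatment with the histone deacetylase (HDAC) inhibitor PCI-24781. The rule named 7 genes, SCIN, GSN, CAPG, FLII, SVIL, AVIL and VIL1, and 6 of them have a row among the 16623 genes of the deposited tables. VIL1, which encodes villin, was not analysed here. The family was selected on measured values, since SCIN rose with dose at 24 h, so its 24 h values are given as a description. The 6 libraries, 1 per condition, came from adherent cells. At each of the times 24 h and 48 h there was a DMSO library, a library of cells given the inhibitor at 100 nM and a library of cells given it at 200 nM. All cells were of the 1 line, and DMSO was the solvent control at each time. The paper lists several media for its cell lines and does not say which was used for this line. The study asked which genes the inhibitor regulates. With 1 library per condition, a difference between 2 libraries could not be tested and is given as a description, and a fit of dose and time together over the 6 libraries is given after the single genes.

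Gelsolin family proteins are built from repeats of a gelsolin-like fold that binds actin. Calcium opens several of them, so that they sever actin filaments and cap the fast-growing end, and the membrane lipid PIP2 releases the cap. Scinderin (adseverin) and gelsolin sever and cap filaments, CAPG caps without severing, villin and advillin add a headpiece that bundles filaments, and FLII and supervillin join the fold to other functions. HDAC inhibitors raise histone acetylation and change the transcription of many genes in either direction.

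Values are FPKM, the fragments assigned to a gene scaled by transcript length and by the fragments mapped in the library, which allows levels of different genes to be set side by side. Changes are differences in log2(FPKM + 1), a scale that understates the change of a low gene. Calls, higher or lower, were made where a gene changed by 2-fold or more on that scale and reached 1 FPKM in either library. The depth was inferred from steps of 1 fragment between low values and was about 15600000 to 18000000 fragments per library. Intervals are 95% exact Poisson intervals for a level and exact binomial intervals for a ratio, both from approximate fragments, and they cover counting error only. At these depths 3 fragments on a 2 kb transcript correspond to 0.0833 to 0.0962 FPKM.

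Of 7 markers listed for the line, VIM lay between 1629.38 and 2053.39 FPKM, CD44 between 154.04 and 218.74 FPKM, and KRT8, KRT18 and KRT19 between 20.62 and 110.61 FPKM. EPCAM was low, at 2.26 to 4.70 FPKM, and CDH1 stayed below 1 FPKM, at 0.24 to 0.39 FPKM. Of the receptors, ESR1 stayed at or below 0.04 FPKM and PGR at or below 0.03 FPKM, while ERBB2 lay between 13.16 and 21.36 FPKM. Markers of immune, fibroblast and endothelial cells were mostly near 0, with CD3E, DCN, PDGFRA, CDH5 and VWF at or below 0.07 FPKM. The summed FPKM of the 4 fibroblast markers, most of it COL1A1, was 2.06, 3.18 and 6.93 in DMSO, 100 nM and 200 nM at 24 h and 2.66, 1.86 and 4.97 at 48 h. That of the 3 endothelial markers, most of it PECAM1, lay between 0.39 and 2.38, and that of the 3 immune markers in the tables (of 4 listed) between 1.09 and 2.47. Their part in the family's changes was not tested.

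The 48 h libraries stood in an order that bears on every 48 h value below. Of the 523 genes called higher at 200 nM 24 h, 441 lay below DMSO 48 h in the library labelled 100 nM 48 h and 77 above it, with a median change of −0.30. In 200 nM 48 h, 498 of them lay above DMSO 48 h, with a median of 0.37. With 1 library per condition, time in culture, treatment and the assignment of the libraries cannot be told apart, so the 48 h values of the main genes are also given against DMSO 24 h.

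The upstream sequences of the family's genes differed in the motifs they held. RefSeq windows of 250 bases before the transcription start (assembly GRCh38.p14) were searched on both strands for 5 promoter motifs. Of 35116 such windows in the table, 42.6% held the GC box, GGGCGG. A further motif, TATAAA, was in 10.7% of the windows. The CCAAT box was in 32.0%. The E-box, CACGTG, was in 6.34%. The CArG box of serum response factor was in 1.16%. The stretches of 30 bases that hold the motifs nearest the start are shown for 4 genes. Each reads 5′ to 3′ on the gene's strand with the motif in capitals. They lie at chr7:12570679-12570708 (+) for SCIN, chr9:121201430-121201459 (+) for GSN, chr2:85414017-85414046 (−) for CAPG and chr17:18258774-18258803 (−) for FLII.
SCIN: gatggcaaacacTATAAAgtggcggcgaat
GSN: gggacacctCCGCCCCCGCCCaggagtcct
CAPG: cacctccaggGGGCGGgGGGCGGctgagac
FLII: ggcgcGGGCGGgttaaagGGGCGGggccgg
The capitals mark TATAAA in SCIN and GGGCGG in the other 3 genes, which in GSN reads on the opposite strand as CCGCCC. The SCIN window held TATAAA at 2 places, 29 to 24 and 214 to 209 bases before its 1 start, and held 1 CCAAT and no GGGCGG. The FLII window, also of 1 start, held 2 GGGCGG and no TATAAA. GSN had 6 starts, whose windows held between 0 and 7 GGGCGG, and the window shown held 3. Another GSN window held TATAAA at 29 to 24 bases before its start, on the opposite strand. CAPG had 4 starts, and only the window shown held GGGCGG, 3 times. Of the measured CAPG transcripts, 1 lay nearest the start shown and 5 nearest a start whose window held no GGGCGG. The difference from SCIN thus holds for the starts shown and not for every start of these genes. SVIL, which is not shown, had no TATAAA, and its 4 windows held 0 or 1 GGGCGG. The AVIL window held neither motif. The SCIN window had 18 CpG dinucleotides and that of FLII 23, against a median of 11 over all windows, while the AVIL window had 3. No window of the 6 genes held the E-box, and 1 of the 4 SVIL windows held a CArG box. Measured transcripts of SCIN, GSN and AVIL began up to 18713, 6317 and 2263 bases from the nearest of these starts. The windows thus do not cover the start of every measured transcript. A motif is a match of letters and does not show that a factor binds there.

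SCIN (NCBI Gene ID 85477), at chr7:12610203-12693228 on the plus strand of hg19, encodes scinderin, a calcium-dependent severing and capping protein known from secretory cells. Its level was 0.17 FPKM in DMSO 24 h, 1.29 FPKM in 100 nM 24 h and 3.77 FPKM in 200 nM 24 h. At 48 h it was 1.32 FPKM in DMSO, 0.31 FPKM in 100 nM and 3.70 FPKM in 200 nM. The libraries fell into 3 pairs, in which the counting intervals overlapped within a pair and not between pairs. Both 200 nM libraries were highest, 100 nM 24 h and DMSO 48 h were in the middle, and DMSO 24 h and 100 nM 48 h were lowest. In bulk RNA, a change in the number of expressing cells and a change in RNA per cell cannot be told apart. These levels rest on few fragments, about 8 in DMSO 24 h, 60 in 100 nM 24 h, 174 in 200 nM 24 h, 62 in DMSO 48 h, 15 in 100 nM 48 h and 154 in 200 nM 48 h.

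**Figure D1:**
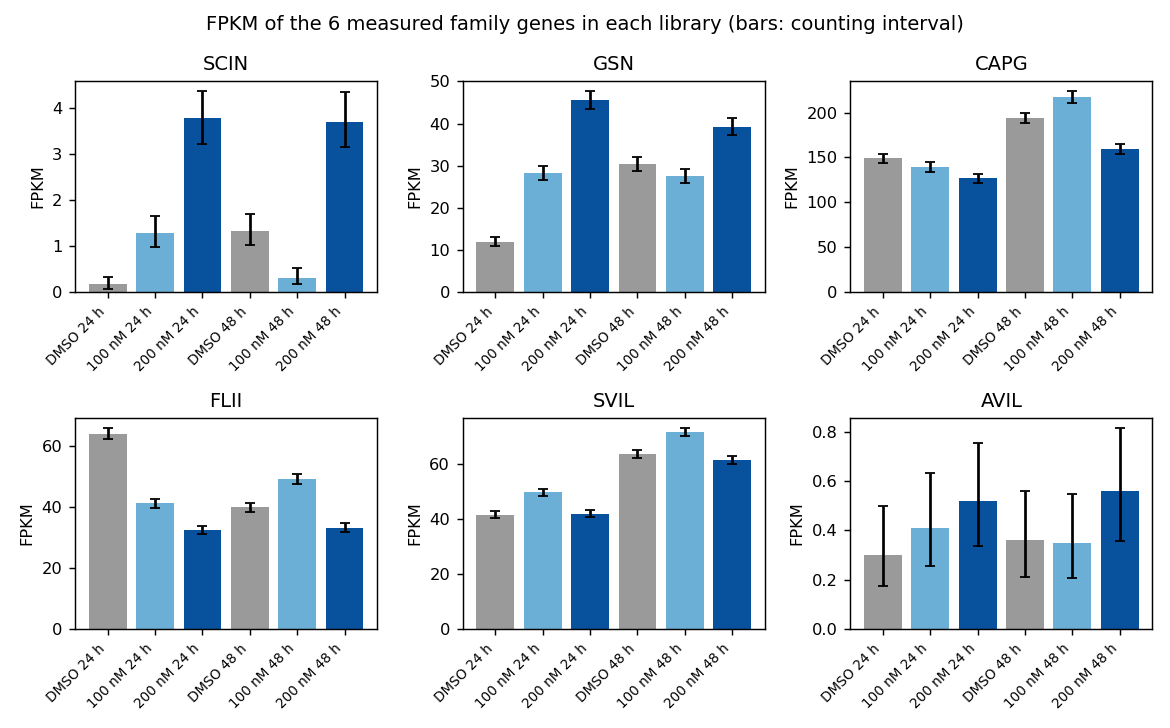
Bars give the FPKM of each of the 6 measured family genes in each library, on a separate linear scale per gene, and error bars give the exact Poisson 95% interval of counting error. SCIN reached 3.77 and 3.70 FPKM in the 200 nM libraries, CAPG stayed between 127.4 and 217.12 FPKM, and the AVIL intervals overlapped in all libraries.

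Against DMSO 24 h, the log2 change of SCIN was 0.97 at 100 nM and 2.03 at 200 nM. The ratios of FPKM were 7.59 (interval 3.67 to 18.7) and 22.2 (11.2 to 52.9), wide because DMSO 24 h held about 8 fragments. The 100 nM change fell just short of a call at 2-fold and the 200 nM change was called, 59th highest of 11660 genes tested. In these 24 h comparisons SCIN passed the minimum of 1 FPKM only through the 100 nM and 200 nM libraries. At 48 h against DMSO 48 h, the log2 change was −0.82 at 100 nM, with a ratio of 0.235 (0.126 to 0.423), and 1.02 at 200 nM, with a ratio of 2.80 (2.07 to 3.83). The 200 nM change at 48 h was called, 23rd highest of 11665, and the 100 nM change was not. Against DMSO 24 h the same 48 h libraries gave 0.16 at 100 nM and 2.01 at 200 nM. The dose step from 100 nM to 200 nM, which uses no library labelled DMSO, was 1.06 at 24 h and 1.84 at 48 h. Both were called, 32nd highest of 11651 and 29th highest of 11694 genes. The rise of SCIN with dose at 24 h chose the family, so the 24 h step is no separate result. The 48 h step uses the library labelled 100 nM 48 h, so it depends on how the 48 h libraries were assigned. DMSO 48 h exceeded DMSO 24 h by 0.99 with a ratio of 7.76 (3.78 to 19.2), nearly the same as the 100 nM change at 24 h.

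GSN (2934), at chr9:124030380-124095120 on the plus strand of hg19, encodes gelsolin, the founding severing protein of the family, made in a cytoplasmic and a secreted form that gene-level values do not separate. Its level was 11.92 FPKM in DMSO 24 h, 28.29 FPKM in 100 nM 24 h and 45.57 FPKM in 200 nM 24 h. At 48 h it was 30.33 FPKM in DMSO, 27.58 FPKM in 100 nM and 39.20 FPKM in 200 nM. DMSO 24 h stood below the other 5 libraries. The intervals of DMSO 48 h, 100 nM 24 h and 100 nM 48 h overlapped, and each 200 nM library lay above those 3. The 6 libraries stood in the same order for GSN as for SCIN, from DMSO 24 h through 100 nM 48 h, 100 nM 24 h, DMSO 48 h and 200 nM 48 h to 200 nM 24 h. The log2 change against DMSO 24 h was 1.18 at 100 nM, with a ratio of 2.37 (2.13 to 2.64), and 1.85 at 200 nM, with a ratio of 3.82 (3.46 to 4.23), and GSN was called higher at both doses, 91st highest of 11475 and 82nd highest of 11660 genes. The 100 nM call was lost with the mean of the 2 DMSO libraries as the reference, where the change was 0.40, and with DMSO 48 h as the reference, where it was −0.10. At 200 nM the changes were 1.07, still called, and 0.57, not called.

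At 48 h GSN was not called. Its log2 change against DMSO 48 h was −0.13 at 100 nM and 0.36 at 200 nM, with ratios of 0.909 (0.838 to 0.986) and 1.29 (1.20 to 1.40). Against DMSO 24 h the same libraries gave 1.15 and 1.64. Between the DMSO libraries GSN was called, higher at 48 h by 1.28 with a ratio of 2.54 (2.29 to 2.83). The step from 100 nM to 200 nM was 0.67 at 24 h and 0.49 at 48 h, below 2-fold at both times.

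CAPG (822), at chr2:85621871-85641197 on the minus strand of hg19, encodes macrophage-capping protein, which caps filaments and does not sever them. It was the most abundant family gene in every library. Its level was 148.96, 139.63 and 127.4 FPKM in DMSO, 100 nM and 200 nM at 24 h, and 193.89, 217.12 and 159.37 FPKM in the same order at 48 h. All 48 h libraries were above all 24 h libraries, and at each time the 200 nM library was lowest. The log2 changes against DMSO of the same time were −0.09, −0.22, 0.16 and −0.28 (100 nM and 200 nM at 24 h, then at 48 h), none near 2-fold, and DMSO 48 h exceeded DMSO 24 h by 0.38.

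FLII (2314), at chr17:18148129-18162230 on the minus strand of hg19, encodes flightless-1, which joins leucine-rich repeats to the gelsolin-like repeats and is also known as a coactivator of nuclear receptors. Its level was 64.08 FPKM in DMSO 24 h, 41.16 FPKM in 100 nM 24 h and 32.46 FPKM in 200 nM 24 h. At 48 h it was 39.88 FPKM in DMSO, 49.1 FPKM in 100 nM and 33.15 FPKM in 200 nM. FLII was highest in DMSO 24 h and lowest in the 200 nM libraries, whose intervals overlapped, so that the 6 libraries stood in the reverse of the order they had for SCIN and GSN. The log2 change against DMSO 24 h was −0.63 at 100 nM and −0.96 at 200 nM, with ratios of 0.642 (0.613 to 0.673) and 0.507 (0.481 to 0.533). The larger change ended just short of a call and was 193rd lowest of 11660 genes. Against DMSO 48 h the changes were 0.29 at 100 nM and −0.26 at 200 nM, and against DMSO 24 h the same libraries gave −0.38 and −0.93. The gene overlaps LLGL1 on the opposite strand. LLGL1 was 12.17 FPKM in DMSO 24 h and 16.61 FPKM in 200 nM 24 h, and whether the counting used strand is not given in the sources used here.

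SVIL (6840), at chr10:29746277-30024730 on the minus strand of hg19, encodes supervillin, which ties actin and myosin II to the plasma membrane. Its level was 41.5, 49.51 and 41.8 FPKM in DMSO, 100 nM and 200 nM at 24 h, and 63.4, 71.43 and 61.15 FPKM in the same order at 48 h. As with CAPG, the 48 h libraries were all above the 24 h libraries. The log2 change was 0.25 at 100 nM and 0.01 at 200 nM at 24 h, where the counting interval of the ratio at 200 nM, 0.968 to 1.05, included 1. At 48 h it was 0.17 and −0.05. DMSO 48 h exceeded DMSO 24 h by 0.60, more than any PCI-24781 library differed from DMSO of its time.

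AVIL (10677), at chr12:58191159-58209852 on the minus strand of hg19, encodes advillin, a villin-like protein known from sensory neurons. It never reached 1 FPKM and was not eligible for a call. Its level was 0.30, 0.41 and 0.52 FPKM in DMSO, 100 nM and 200 nM at 24 h, and 0.36, 0.35 and 0.56 FPKM at 48 h, on about 16 to 26 fragments per library. The 200 nM library was the highest at each time. The ratios to DMSO were 1.73 (0.868 to 3.35) at 200 nM 24 h and 1.56 (0.821 to 3.05) at 200 nM 48 h, and every interval included 1, so no difference was detectable at this depth. The gene overlaps TSFM on the opposite strand. The villin-like gene VILL, a further relative outside the rule, was listed between 0 and 0.06 FPKM.

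Across the family, 5 of the 6 measured genes passed the minimum of 1 FPKM. SCIN did so through only 1 of the 2 libraries in each comparison below except 200 nM 48 h against DMSO 48 h, where both passed. At 100 nM 24 h 1 gene was called higher (GSN), where 1.35% of 11475 genes were, and none was called lower, where 0.131% were. At 200 nM 24 h 2 were called higher (SCIN and GSN), where 4.49% of 11660 genes were, and none was called lower, where 1.48% were. The SCIN call at 24 h follows from the rule that selected the family. At 100 nM 48 h none was called in either direction, where 0.0608% of 11514 genes were called higher and 0.408% lower. At 200 nM 48 h 1 was called higher (SCIN), where 0.206% of 11665 genes were, and none lower, where 0.06% were. Between DMSO 48 h and DMSO 24 h 1 was called higher (GSN), where 2.49% of 11490 genes were, and none lower, where 0.131% were. The median log2 change over the 6 genes, AVIL included, was 0.18 and 0.12 at 100 nM and 200 nM 24 h. It was 0.08 and 0.07 at 48 h, and 0.49 between the DMSO libraries. Over the 5 members tested, the medians were 0.25, 0.01, 0.16, −0.05 and 0.60 in the same order. The medians over all genes tested lay between −0.01 and 0.01.

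Dose and time were also fitted together over the 6 libraries with limma, with time as the block, which leaves 2 residual degrees of freedom and averages each dose over both times. SCIN and the 24 h libraries that chose the family are part of this fit, so it is no independent test of them. For 200 nM against DMSO the log2 change was 1.52 ± 0.39 (SE) for SCIN, 1.10 ± 0.34 for GSN and −0.61 ± 0.22 for FLII, each with an adjusted p of 0.326, and −0.25 ± 0.12 for CAPG (adjusted p = 0.356). No family gene passed 0.05, and neither did any of the 11893 genes fitted, of which 986 higher and 794 lower had an unadjusted p under 0.05. For 100 nM the changes of SCIN and GSN were 0.07 ± 0.39 and 0.52 ± 0.34, with no gene of the 11893 past 0.05 after adjustment and 17 higher and 10 lower before it. Between 48 h and 24 h the change was 0.55 ± 0.09 for SVIL (adjusted p = 0.0679) and 0.44 ± 0.10 for CAPG (adjusted p = 0.121), where 55 genes were higher and 6 lower past 0.05.

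**Figure D2:**
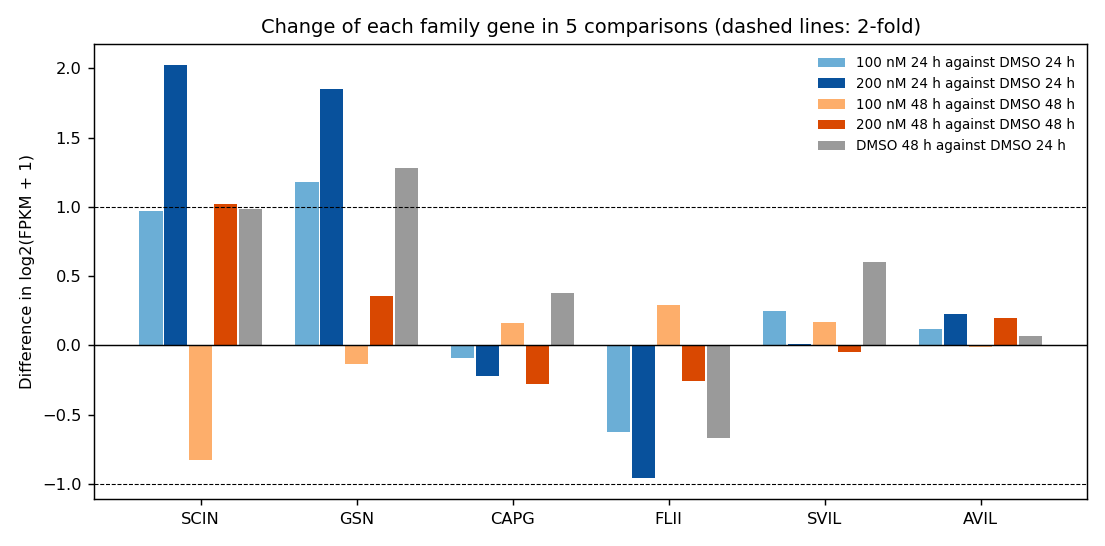
Bars give the difference in log2(FPKM + 1) of each family gene in 5 comparisons, and dashed lines mark 2-fold in either direction. SCIN was at 2.03 and GSN at 1.85 at 200 nM 24 h, and FLII was the lowest value at −0.96.

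The members differed widely in their range over the libraries. The highest library exceeded the lowest 22.2-fold for SCIN, 3.82-fold for GSN, 1.97-fold for FLII, 1.87-fold for AVIL, 1.72-fold for SVIL and 1.70-fold for CAPG. Of 11893 genes with at least 1 FPKM in any library, 99.0% had a smaller log2 range over the 6 libraries than SCIN and 98.7% a smaller one than GSN. The figures were 88.5% for FLII, 79.5% for SVIL and 79.3% for CAPG. The range of SCIN, its 24 h part included, is a value that chose the family.

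The balance within the family shifted at 24 h while its sum did not rise. The summed FPKM of the 6 genes was 266.93, 260.29 and 251.52 in DMSO, 100 nM and 200 nM at 24 h, and 329.18, 365.89 and 297.13 at 48 h. GSN made up 4.47%, 10.9% and 18.1% of the sum at 24 h and 9.21%, 7.54% and 13.2% at 48 h. FLII made up 24.0%, 15.8% and 12.9% at 24 h and 12.1%, 13.4% and 11.2% at 48 h. GSN stood at 0.186 of the FLII level in DMSO 24 h and at 1.40 times it in 200 nM 24 h, and only in the 200 nM libraries, with 1.18 at 48 h, was it above FLII. SCIN remained a minor member even at its highest, with 1.5% of the sum in 200 nM 24 h, where CAPG was 33.8 times as abundant, and its share was lowest in DMSO 24 h at 0.0637%.

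**Figure D3:**
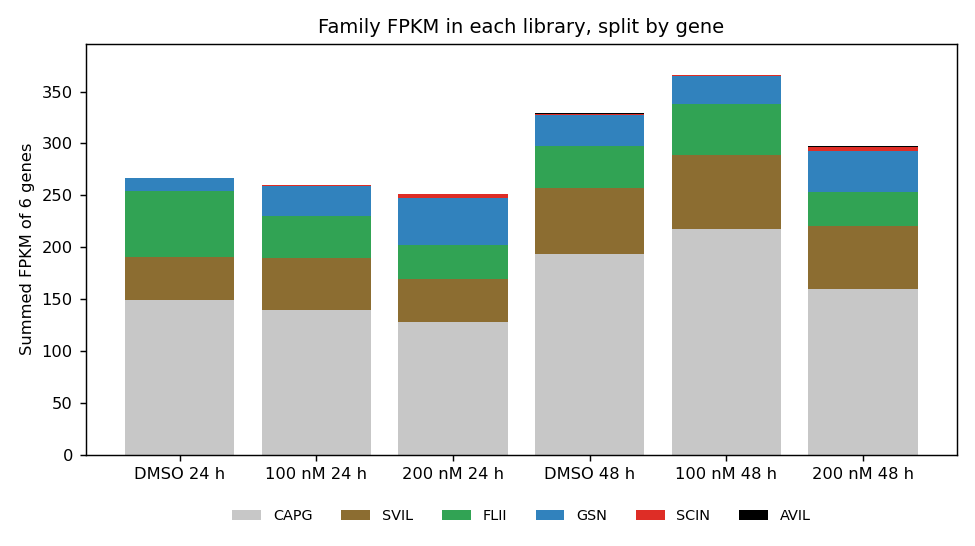
Stacked bars give the FPKM of the 6 family genes in each library, and the height of a bar is their sum. CAPG made up 50.7% to 59.3% of each bar, GSN widened from 4.47% to 18.1% across the 24 h libraries, and FLII narrowed from 24.0% to 12.9%.

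On a scale that set DMSO 24 h at 0 and 200 nM 24 h at 100 for each gene, the remaining libraries could be placed along the 24 h change. The scale was used only for the 3 members with the largest changes at 200 nM 24 h. Its ends are 24 h values, and those of SCIN chose the family, so the places are a description. The library 100 nM 24 h stood at 47.8 for SCIN, 63.8 for GSN and 65.3 for FLII. DMSO 48 h stood at 48.7, 69.1 and 69.9, and 200 nM 48 h at 98.9, 88.5 and 96.9 for the same genes. All 3 genes thus placed DMSO 48 h close to 100 nM 24 h and 200 nM 48 h close to 200 nM 24 h. The place of DMSO 48 h was not particular to the family. With DMSO 24 h as the reference, 514 of the 523 genes called higher at 200 nM 24 h rose in DMSO 48 h and 7 fell. Their median change was 0.755, beside 0.781 in 100 nM 24 h. Of the 172 genes called lower, 155 fell and 17 rose, with medians of −0.4 and −0.577 in the same order. Both sets of genes were chosen against DMSO 24 h, which is also the reference here. These counts and medians therefore depend in part on the selection and are given as a description. SCIN, GSN and FLII did not place 100 nM 48 h alike, since it stood at 8.0 for SCIN, 39.3 for FLII and 61.9 for GSN.

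The profiles over the 6 libraries were also compared by Pearson's r of log2(FPKM + 1), as a description over 6 points that share libraries and depth. SCIN and GSN had an r of 0.85, SCIN and FLII −0.95, GSN and FLII −0.96, and CAPG and SVIL 0.89. Of 1230 genes with at least 1 FPKM in some library and a log2 range of at least 1, the 5 most like SCIN were SCG2 (r = 0.997), CREG1 (0.995), TMEM86A (0.994), SERPINE2 (0.993) and PCDH1 (0.992). SCG2, which encodes the secretory granule protein secretogranin II, was at 0.19, 2.85 and 9.28 FPKM in DMSO, 100 nM and 200 nM at 24 h and at 2.14, 0.38 and 8.70 FPKM at 48 h, the same order of libraries as SCIN apart from DMSO 48 h and 100 nM 24 h, which exchanged places. PCDH1, a protocadherin, was at 0.08, 3.21 and 10.16 FPKM and then at 3.08, 0.15 and 12.53 FPKM. For GSN the 3 nearest were RPS6KA2, SLC2A12 and COL5A1, for CAPG FAM20C, GPR146 and IQSEC2, for FLII ATP9B, QTRT1 and BTBD6, and for SVIL WFDC3, CLDN7 and SPAG4, with r from 0.983 to 0.997.

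The genes on either side of SCIN on chromosome 7 that are given here were not called in the comparisons with DMSO. On its start side VWDE, 166351 bases away, was 0.64, 1.08 and 1.07 FPKM in DMSO, 100 nM and 200 nM at 24 h. At 48 h it was 0.89, 0.30 and 1.02 FPKM. Its log2 change at 100 nM 48 h was −0.54, with both libraries below 1 FPKM, so it was not eligible for a call there. TMEM106B, a lysosomal membrane protein gene 333313 bases away, changed by 0.22 and 0.15 at 24 h. On the end side ETV1, an ETS transcription factor gene 1237626 bases away, changed by −0.003 and −0.18 at 24 h. The 24 h rise of SCIN chose the family, so its larger change of 2.03 at 200 nM 24 h is no separate result.

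Other actin regulators were read from lists of 81 genes, of which 79 were in the tables and 58 to 61 passed the minimum in a comparison. At 200 nM 24 h 5 of 59 were called higher and 2 lower, beside 4.49% and 1.48% of all genes. At 100 nM 24 h 1 of 58 was called higher, beside 1.35% of all genes, and none lower. None was called in either direction at 48 h against DMSO 48 h, where at most 0.408% of all genes were called in a direction, and 1 of 58 was called higher in DMSO 48 h against DMSO 24 h, beside 2.49% of all genes. With so few genes, these counts are not read as a result about the lists. The median changes over the tested genes lay between −0.03 and 0.03, beside −0.01 to 0.01 over all genes.

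The genes called at 200 nM 24 h are known to act at different steps of filament turnover. DAAM1, a formin that elongates filaments, went from 1.67 FPKM in DMSO 24 h to 5.05 at 100 nM and 7.5 at 200 nM, and was called at both doses and in DMSO 48 h, at 4.77 FPKM. TMOD1 and TMOD2, tropomodulins that cap the slow-growing end, went from 0.40 to 1.89 and from 0.49 to 2.77 FPKM between DMSO and 200 nM at 24 h. PLS1, a plastin that bundles filaments, went from 8.31 to 22.52 FPKM, and TPM1, a tropomyosin that coats them, from 41.67 to 100.62 FPKM. The genes called lower were CAP2, a cyclase-associated protein that recycles actin monomers, from 30.36 to 8.31 FPKM, and ARPC1B, a subunit of the Arp2/3 complex that branches filaments, from 41.36 to 16.74 FPKM. In 100 nM 48 h, PLS1 (8.73 FPKM), TPM1 (41.8), TMOD1 (0.45), TMOD2 (0.56) and ARPC1B (39.51) were near their DMSO 24 h levels, as SCIN was, while DAAM1 (3.25) and CAP2 (22.68) lay between DMSO 24 h and 200 nM 24 h.

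The most abundant gene of each list was not called in any comparison. ACTB, encoding cytoplasmic beta-actin, lay between 2931.44 and 3667.74 FPKM, and TMSB10, a thymosin that holds actin monomers, between 3150.16 and 4195.63 FPKM. CAPZA1, a subunit of the main capping protein, lay between 120.08 and 152.23 FPKM, close to CAPG at 24 h and below it at 48 h on the same scale. ARPC3 (Arp2/3 complex), DIAPH1 (formins), ACTN4 (cross-linkers), TPM4 (tropomyosins), LRRFIP1 (a partner of FLII), PIP5K1A (a PIP2-making kinase) and EZR (brush border genes) headed the other lists. TPM4 was the most variable of these, at 631.79 FPKM in DMSO 24 h and 367.43 FPKM in 200 nM 24 h. The actin isoform with the largest change at 200 nM 24 h was ACTA2, at 0.88, and among the PIP2-making kinases it was PIP5K1C, at 0.45, neither of them called.

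**Figure D4:**
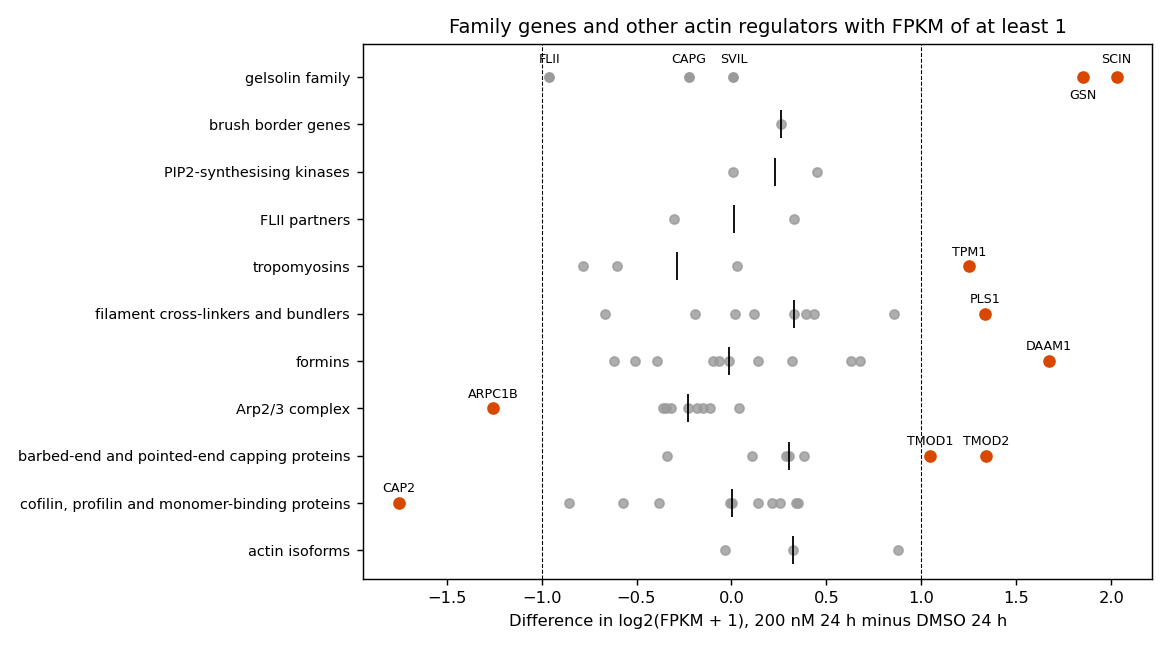
Points give the difference in log2(FPKM + 1) between 200 nM 24 h and DMSO 24 h for genes with at least 1 FPKM in either library, 1 row per list, with called genes in orange, 2-fold marked by dashed lines and list medians by black ticks (none for the gelsolin family). SCIN and GSN lay at 2.03 and 1.85, further to the right than DAAM1 at 1.67, and CAP2 lay furthest to the left at −1.75. The 24 h rise of SCIN chose the family, and SCIN passed 1 FPKM here only through 200 nM 24 h, so its place is no separate result.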

How the data were processed

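Total RNA of MDA-MB-231 cells was extracted, and the paper names mRNA enrichment or rRNA depletion in making the libraries. There was 1 library per condition and 6 libraries in all. The authors deposited gene-level FPKM with 2 decimals. The submitters' processing notes name Bowtie2, RSEM and hg19, without versions, and filters are not given in the sources used here. The members and gene lists were chosen with earlier results of these data known. Genes were matched to symbols by NCBI Gene ID (16585 of 16623). Differences of log2(FPKM + 1) were taken between libraries, and a gene was called at 2-fold with at least 1 FPKM in either library. A pair of libraries gives no test. Dose and time together were fitted with limma 3.58.1 (R 4.3.3, Benjamini-Hochberg adjustment) to genes with at least 1 FPKM in any library, chosen after seeing the data. Depth was inferred from 1-transcript genes of 500 to 1500 bases, and fragments from the shortest transcript of a gene, with lengths from GENCODE release 29, so the fragment numbers are approximate. Calls and depth were checked on simulated counts with counting error only. The genes changed in them were more abundant than SCIN or AVIL, so recovery of changes in genes that low was not checked. The genes named are all members, the most abundant, most changed and called genes of each actin list, the genes most like each member in profile, and the 2 nearest measured genes on each side of SCIN. An item that this rule covers is not reported here. Alternatives were pseudocounts of 0.1 and 0.01, no filter, 1 FPKM in both libraries, rescaling to TPM or by median-of-ratios factors, a 1.5-fold threshold and other DMSO references. Upstream windows came from RefSeq (GRCh38.p14) and no coordinates were converted between builds. Protein sequences were not used here. Python 3.11.15, numpy 2.4.6, pandas 2.3.3, scipy 1.17.1 and matplotlib 3.10.9 were used.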

Additional observations from a re-analysis of the deposited data

Results flagged for a closer look

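The SCIN values at 100 nM PCI-24781 lay on opposite sides of DMSO at the 2 times. The log2 change against DMSO of the same time was 0.97 at 24 h, from 0.17 to 1.29 FPKM, and −0.82 at 48 h, from 1.32 FPKM in the library labelled DMSO 48 h to 0.31 FPKM in that labelled 100 nM 48 h. The sign at 48 h depends on which of these libraries is the control, and an exchange of their labels would turn it. The labels were used as given, and with 1 library per condition the difference between the times was not tested. Against DMSO 24 h the library labelled 100 nM 48 h gave 0.16.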

How the results depend on the processing

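With 1 library for every dose and time, no replicate could be left out. The replicate block was time, in the fit of dose and time together, where SCIN changed by 0.07 at 100 nM and 1.52 at 200 nM and no gene was past 0.05 at either dose. For each setting, counts are of the 6 measured genes called and medians are of their log2 changes. Shares over all genes were computed only for the main setting and the 1.5-fold threshold. Counts at the other settings have no such share beside them and are not read as results about the family. With pseudocounts of 0.1 and 0.01, 2 genes were called higher at 100 nM 24 h and 2 in DMSO 48 h against DMSO 24 h (SCIN joining GSN), 1 was called lower at 100 nM 48 h (SCIN), and the 24 h medians were 0.30 and 0.35 for the lower dose, and 0.32 and 0.39 for 200 nM. Rescaling to TPM gave the same counts of 2, 2 and 1. Median-of-ratios factors called 1 gene lower at 200 nM 24 h (FLII, −1.02). With 1 FPKM required in both libraries, 1 gene was called higher at 200 nM 24 h, because SCIN was below 1 FPKM in DMSO 24 h. The 1.5-fold threshold called 2 higher and 1 lower for 100 nM 24 h, 1 lower for 200 nM 24 h, 1 lower for 100 nM 48 h, and 3 higher and 1 lower between the DMSO libraries. At that threshold 5.58% of all genes were higher and 1.25% lower for 100 nM 24 h, 12.5% and 7.62% for 200 nM 24 h, 0.504% and 1.76% for 100 nM 48 h, with 8.51% and 1.95% for DMSO 48 h against DMSO 24 h. With the mean of the 2 DMSO libraries as the reference, 0 were called higher at 100 nM 24 h (GSN, 0.40), and the medians for 100 nM and 200 nM were 0.0013 and −0.064 at 24 h, then 0.18 and 0.22 at 48 h. With the DMSO library of the other time, an alternative chosen after seeing the data, the 24 h calls higher were 0 for 100 nM and 1 for 200 nM (SCIN) and the 48 h calls were 1 (GSN) and 2, with medians in that order of −0.058, −0.0642, 0.35 and 0.41, and the change of GSN at 100 nM 24 h turned to −0.10. The cause of these shifts between DMSO references was not tested. Both pseudocounts, both filters and TPM kept the sign of all 30 gene changes, and median-of-ratios factors kept 29. The mean of the 2 DMSO libraries kept 18 of 24, and the DMSO library of the other time kept 13. Depth limits SCIN and AVIL, which rest on 8 to 174 fragments per library.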
